A study of Mus musculus with 4 samples.

Results

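The constant region genes of the T cell receptor are described here in natural killer (NK) cells set against T cells, each sorted from tumours of the same kind. All 7 genes named at the outset were found in the table of 55450 genes: Trac for the alpha chain, Trbc1 and Trbc2 for the beta chain, Trdc for the delta chain, and Tcrg-C1, Tcrg-C2 and Tcrg-C4 for the gamma chain. Each symbol had 1 row, and all 7 passed the filter of a mean of at least 1. RNA was sequenced from NK cells (2 libraries) and T cells (2 libraries) of BALB/C mice carrying subcutaneous CT26 tumours, a syngeneic colon carcinoma line. Each library is a pool of animals, 4 mice for NK 1 and T 1 and 6 mice for NK 2 and T 2. All mice received 500000 live CT26 cells and no other treatment is given in the labels. The sources used here give neither the sort gate, and so not whether receptor or CD3 staining was used, nor the ages of the mice.

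The T cell receptor is a pair of chains, alpha with beta or gamma with delta, carried to the cell surface by the CD3 chains. Each chain gene is assembled in the thymus by joining V, (D) and J segments, and the joined exon is spliced to a constant region, which is the part the 7 genes encode. NK cells do not need a rearranged receptor. Unrearranged receptor loci can nevertheless be transcribed, and such germline transcripts hold a constant region without a joined V segment.

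The values are reads per 1 M of scaled library size, called normalized CPM below, without correction for gene length. Depth was 2228226 and 2665928 reads on genes for NK and 2067728 and 2893240 for T, of which ribosomal RNA genes took 36.9% and 38.8% in NK libraries against 52.4% and 42.7% in T libraries. By limma with Benjamini-Hochberg adjustment, 17 of 20 NK identity genes passed as higher in the NK libraries and 0 as lower, with Gzma (granzyme A) at 8659 and 6595 against 16.5 and 19.5 in T libraries. All 11 alpha-beta T cell genes passed as lower in the NK libraries. Of 10 core macrophage markers 0 passed by limma or edgeR (9 higher in NK at an unadjusted p under 0.05, 8 with the mouse pool as a replicate block), and their sum was 984 and 207 in NK libraries 1 and 2 against 238 and 25.2 in T libraries 1 and 2. Of 8 B cell markers, 7 and 5 were at 0 in the NK libraries and 6 and 3 in the T libraries, Ms4a1, Cd79a and Cd22 in all 4. The B cell marker Ighm was present in all 4, at 23.59 and 54.96 in NK libraries against 34.69 and 43.23 in T libraries. Igkc was at 0 and 0.71 in NK libraries against 3.85 and 3.19 in T libraries, and neither gene passed by limma or edgeR. Of 8 tumour and stromal markers 3 were tested and 1 passed (2 with the replicate block), Col1a2, a collagen chain, at 8.95 and 13.8 in NK libraries against 0 and 0 in T libraries. Krt8, Krt18 and Sparc had 0 reads in all 4 libraries, and Col1a1 had 0 in both NK libraries. Col3a1 was at 0 and 1.06 in NK libraries against 0 and 0 in T libraries. Epcam was at 0 and 2.48 against 6.61 and 2.83, and Pecam1 at 146 and 248 against 63.3 and 91.4.

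The constant regions of 1 chain are copies of each other, and how far they differ sets how well reads can be told apart, so the stretches that matter are shown first. In the GENCODE M21 annotation of GRCm38 (C57BL/6 reference), Trbc1 and Trbc2 share 95.6% of their coding bases. Their first exon, 375 bases long, differs at 1 base, while exon 3 differs at 15 of 107 bases. Both stretches are given 5′ to 3′ on the plus strand, with differing bases in capitals. Exon 1 is shown around its only difference and exon 3 whole.
Trbc1 exon 1, chr6:41538447-41538507: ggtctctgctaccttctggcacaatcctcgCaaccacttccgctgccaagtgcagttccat
Trbc2 exon 1, chr6:41546959-41547019: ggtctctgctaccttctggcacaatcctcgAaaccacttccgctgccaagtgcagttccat
Trbc1 exon 3, chr6:41539229-41539335: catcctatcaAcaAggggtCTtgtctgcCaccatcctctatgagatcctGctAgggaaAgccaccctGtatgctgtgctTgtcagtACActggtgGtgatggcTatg
Trbc2 exon 3, chr6:41547772-41547878: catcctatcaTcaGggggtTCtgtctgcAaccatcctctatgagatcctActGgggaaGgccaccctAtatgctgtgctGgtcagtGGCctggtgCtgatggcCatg

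Of all stretches of 50 bases in the longest Trbc1 transcript, 41.1% also occur in the Trbc2 transcript, and 44.0% the other way round. Their annotated untranslated regions share only 48.6% of bases. How the authors treated reads that match both copies is not given, so the split between Trbc1 and Trbc2 is less certain than their sum. Among the gamma genes, Tcrg-C1 and Tcrg-C2 are close copies (94.6% of coding bases shared), while Tcrg-C4 shares 70.5% with Tcrg-C1 and 68.5% with Tcrg-C2. No stretch of 50 bases is shared between the transcripts of Tcrg-C4 and Tcrg-C1 or Tcrg-C2, whereas 17.9% of those of Tcrg-C1 occur in Tcrg-C2. Trac and Trdc, which lie in 1 locus on chromosome 14, share no such stretch either. BALB/C sequence was not used here.

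Levels differed between the cell types by chain. Trac and Trbc2 were lower in NK cells than in T cells, Trdc was higher in NK cells, and Trbc1 and the 3 gamma genes did not pass the test. Thus limma on log2(value + 1), with adjustment over 12128 genes, called 1 of 7 genes as higher in NK cells, against 1.24% of all genes tested, and 2 of 7 as lower, against 1.09% of all genes. On the recovered reads edgeR called the same 3 genes (background 1.42% higher in NK and 1.31% higher in T), and DESeq2 those 3 and Tcrg-C2 (background 1.81% and 1.82%). The median log2 fold change, NK minus T, was -1.72 over the 7 genes and 0.02 over all genes tested. In 5 of 7 genes the NK and T libraries did not overlap, which held for 43.4% of all genes tested. With any 1 of the 4 libraries left out, limma called 0 of the 7 genes and 0 of all genes, while 3 to 5 of the 7 and 677 to 1758 of all genes had an unadjusted p under 0.05. In sorted pools, fewer transcribing cells and less RNA per cell cannot be told apart.

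**Figure D1:**
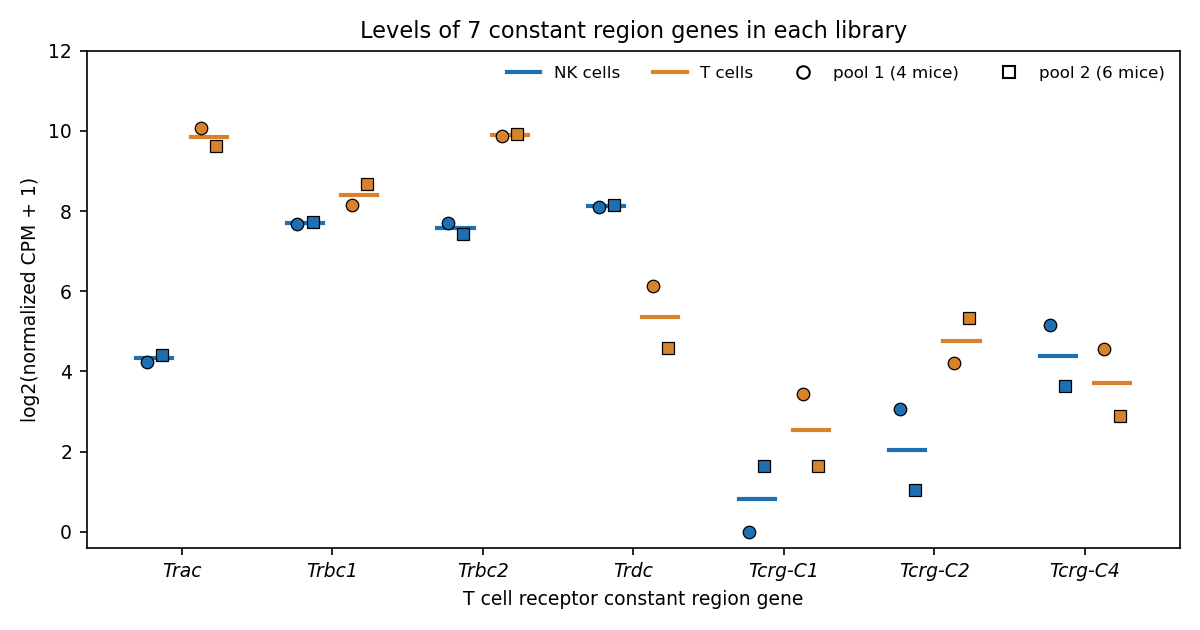
Level of each constant region gene, as log2(normalized CPM + 1), in the NK libraries (blue) and T libraries (orange); circles are pool 1, squares pool 2 and bars the mean of the 2 pools. Trac shows the widest gap towards T cells and Trdc the widest towards NK cells, while both cell types overlap at Tcrg-C1 and Tcrg-C4.

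Trac encodes the single constant region of the alpha chain (ENSMUSG00000076928.5, chromosome 14, 54220521 to 54224206, plus strand, 4 exons). It had 17.9 and 20.2 normalized CPM in NK libraries, from 44 and 57 reads, against 1068 and 791 in T libraries. Both NK values lay far below both T values. By limma the log2 fold change was -5.52 with an SE of 0.33 (adjusted p = 3.65e-05), with means of 19.1 ± 1.64 in NK cells and 929 ± 196 in T cells (SD, n = 2 each). The NK level was 1.68% of the T level in pool 1 (95% counting interval 1.21% to 2.26%) and 2.55% in pool 2 (1.93% to 3.32%).

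The share of Trac was within the range of other T cell genes, above 6 of 11 alpha-beta T cell genes in pool 1 and 8 of 11 in pool 2. Over the 11 alpha-beta T cell genes the NK level as a percent of the T level had a median of 1.65% in pool 1 and 1.03% in pool 2. Cd8a, a coreceptor chain, had 2 reads and 0 reads in the NK libraries, and Themis, a signalling protein of developing T cells, had 0 in both. Cd28, the costimulatory receptor, had the highest share of the 11, at 36.9% in pool 1 and 35.6% in pool 2.

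For the beta chain genes the NK level was a larger share of the T level. Trbc2 (ENSMUSG00000076498.2, chromosome 6, 41546730 to 41548352, plus strand) had 208 and 171 normalized CPM in NK libraries against 931 and 966 in T libraries. The groups did not overlap, and the difference passed limma with a log2 value of -2.32 (SE 0.29, adjusted p = 0.00237). The NK level was 22.4% of the T level in pool 1 (counting interval 20.2% to 24.7%) and 17.7% in pool 2 (16.1% to 19.5%).

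Trbc1, the upstream copy (ENSMUSG00000076490.6, chromosome 6, 41538218 to 41539881, plus strand), had closer levels in both cell types. It had 205 and 211 normalized CPM in NK libraries against 282 and 406 in T libraries. Both NK values lay below both T values, but the log2 fold change of -0.70 (SE 0.31) did not pass (limma adjusted p = 0.383). The NK level was 72.7% of the T level in pool 1 (counting interval 64.2% to 82.4%) and 52.0% in pool 2 (47.0% to 57.5%). In both pools the shares of Trbc1 and of Trbc2 were above those of 10 or more of the 11 alpha-beta T cell genes, Cd28 being above Trbc2.

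Because the copies share most of exon 1, their sum is the firmer value. Together the beta genes stood at 414 and 382 normalized CPM in the NK pools against 1214 and 1372 in T cells. The summed NK level was 34.1% of the T level in pool 1 (counting interval 31.6% to 36.7%) and 27.9% in pool 2 (26.0% to 29.8%). For every Trac read there were 23.1 beta reads in NK library 1 and 18.9 in NK library 2, against 1.14 and 1.73 in the T libraries. The counting intervals of these ratios were 17.1 to 32.0 and 14.5 to 25.1 for NK and 1.07 to 1.21 and 1.65 to 1.83 for T. Both NK intervals lay above both T intervals, and the T libraries also differed from each other beyond counting error.

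**Figure D2:**
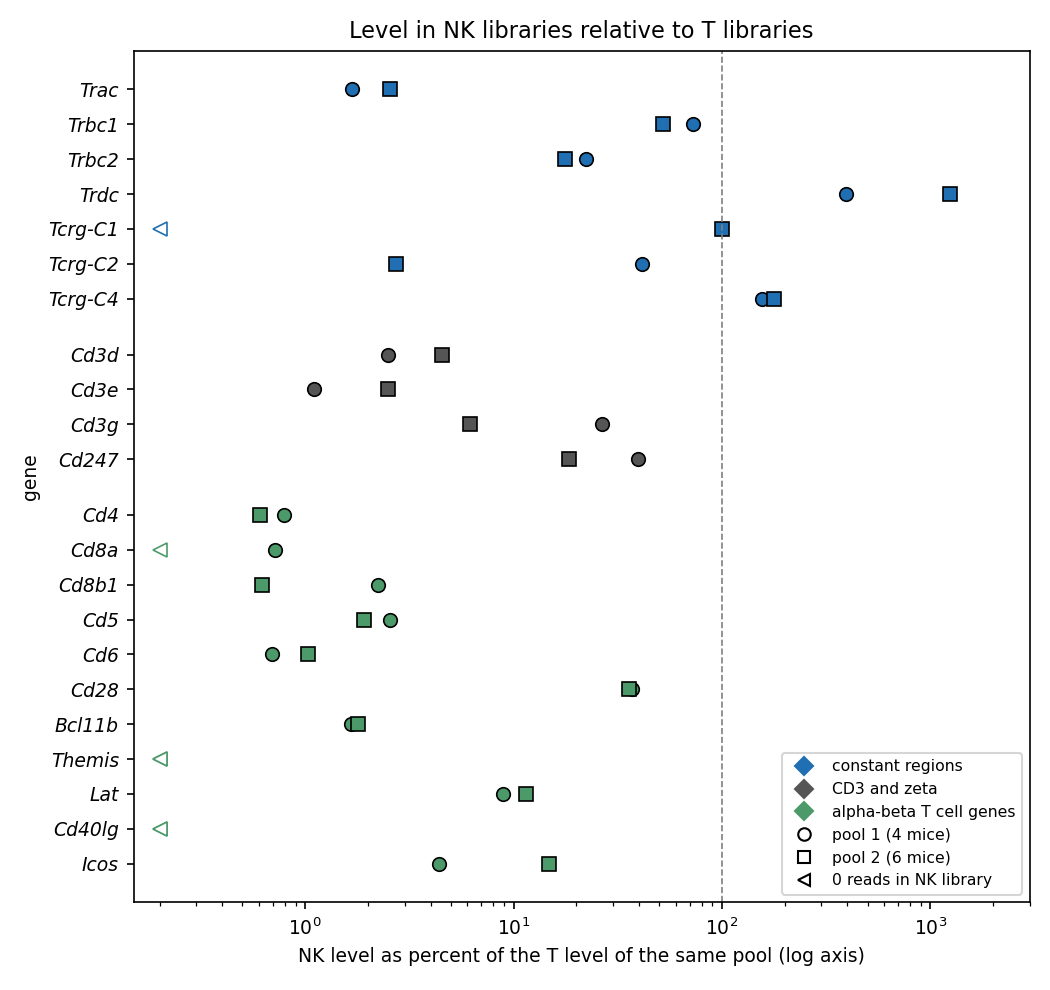
Normalized CPM in the NK library as a percent of the T library of the same pool (log axis) for the 7 constant region genes, the CD3 and zeta chains and 11 alpha-beta T cell genes; circles are pool 1, squares pool 2, open triangles at the left edge mark 0 NK reads and the dashed line marks equal levels. Trac sits among the T cell genes at 1.68% and 2.55%, Trbc1 and Trbc2 lie between 17.7% and 72.7%, and Trdc lies above 100% in both pools.

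The 2 beta copies also held different shares of the beta reads. Trbc1 held 49.7% (counting interval 46.5% to 52.8%) and 55.2% (52.2% to 58.2%) of the beta reads in the NK libraries. In the T libraries it held 23.3% (21.5% to 25.1%) and 29.6% (28.1% to 31.0%). The mean difference was 26.0 percentage points, and both NK libraries lay above both T libraries. An exact two-sided permutation test gave p = 0.33, the smallest value that 2 libraries against 2 allow.

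Trdc, the delta constant region (ENSMUSG00000104876.1, chromosome 14, 54142851 to 54148868, plus strand), went the other way. It had 273 and 285 normalized CPM in NK libraries, from 670 and 804 reads, against 68.8 and 23.0 in T libraries. The NK libraries were alike, whereas T pool 1 held several times the level of T pool 2. The log2 fold change was 2.77 (SE 0.46, limma adjusted p = 0.0111), and the call was lost with a pseudocount of 0.1 (limma adjusted p = 0.0691). The ratio of NK to T was 3.96 in pool 1 (counting interval of the NK level 327% to 483% of the T level) and 12.4 in pool 2 (960.5% to 1619%). Exons of Trdc overlap 96 bases of the antisense gene Gm43434 and 207 bases of Trdv5 on the minus strand. These genes were at 0 in NK pool 1 and both T libraries and at 0.71 and 0.35 normalized CPM in NK pool 2, far below Trdc.

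**Figure D3:**
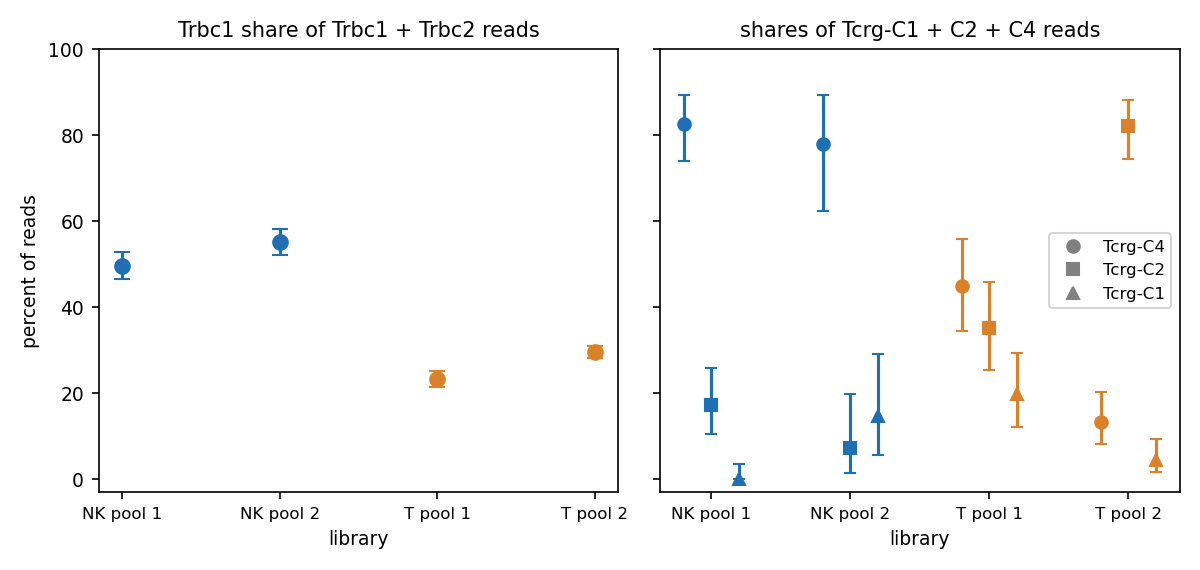
Share of Trbc1 in the reads of both beta constant regions (left) and of each gamma constant region in the reads of all 3 (right), in percent of reads per library, with exact 95% counting intervals; NK libraries in blue, T libraries in orange. Trbc1 holds 49.7% and 55.2% in the NK pools against 23.3% and 29.6% in T cells, and Tcrg-C4 has the highest share in both NK libraries and in T pool 1, while Tcrg-C2 has it in T pool 2.

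The gamma constant regions were low, and none passed the test. Tcrg-C2 (ENSMUSG00000076752.2, chromosome 13, 19304649 to 19307551, minus strand) had 7.32 and 1.06 normalized CPM in the NK pools against 17.6 and 39.0 in T cells. The groups did not overlap, and the log2 fold change by limma was -2.72 with an SE of 0.75 (adjusted p = 0.108). With the mouse pool as a replicate block the limma adjusted p was 3.05e-04, and the count of constant region genes called higher in T cells became 3. That fit, with 1 residual degree of freedom, called 4.26% of all genes as higher in NK and 3.97% as higher in T. DESeq2 on the recovered reads gave adjusted p = 0.0498. The NK level was 41.5% of the T level in pool 1 (counting interval 22.0% to 76.3%) and 2.73% in pool 2 (0.55% to 8.19%). The pool 2 share rests on 3 NK reads.

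Tcrg-C4 (ENSMUSG00000076757.9, chromosome 13, 19344558 to 19352756, plus strand) had 35.0 and 11.3 normalized CPM in the NK pools against 22.6 and 6.38 in T cells. Pool 1 was higher than pool 2 in both cell types, as were the macrophage markers, whose part in this was not tested, and the groups overlapped. The log2 fold change was 0.68 (SE 0.69, limma adjusted p = 0.741), and it turned negative without NK replicate 1 or T replicate 2 (-0.10 and -0.16). Within pools the NK level was 155% of the T level in pool 1 (counting interval 106% to 231%) and 178% in pool 2 (96.9% to 337%). Tcrg-C4 held 82.7% and 78.0% of all gamma constant reads in NK libraries, against 45.1% and 13.4% in T libraries (exact two-sided permutation p = 0.33, the smallest possible).

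Tcrg-C1 (ENSMUSG00000076749.2, chromosome 13, 19214103 to 19217024, plus strand) had 0 and 2.13 normalized CPM in the NK pools against 9.91 and 2.13 in T cells. Because it is a close copy of Tcrg-C2, reads may be split between them, and the treatment of such reads is not given. In pool 1 the T level was 8.12 times a floor of 3 reads in the NK library. There the counting interval of the NK level reached up to 16.8% of the T level, while in pool 2 both libraries had 6 reads. The log2 fold change of -1.72 (SE 0.92) did not pass (limma adjusted p = 0.495).

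Levels were set against each other per 1 kb of annotated exon, since exon lengths ran from 692 bases in Trbc2 to 3865 bases in Trdc. In NK cells Trbc1 averaged 278 and Trbc2 274 normalized CPM per kb and their ranges overlapped. They were followed by Trdc at 72.1, Tcrg-C4 at 23.5 and Trac at 20.4, of which the last 2 overlapped, and by Tcrg-C2 at 4.59 and Tcrg-C1 at 1.15, which also overlapped. In T cells the order was Trbc2 at 1371, Trac at 994 and Trbc1 at 459, with no overlap between neighbours. Below them Tcrg-C2 at 31.0, Tcrg-C4 at 14.7, Trdc at 11.9 and Tcrg-C1 at 6.51 each overlapped the next. On this scale beta regions made up 81.2% and 82.7% of constant region signal in NK cells and 58.7% and 68.2% in T cells. Trdc made up 9.95% and 11.5% in the NK libraries and 0.61% and 0.21% in the T libraries. Trac made up at most 3.38% in an NK library, against 38.9% and 29.8% in T libraries. The shares depend on the scale, since 3407 of the 3865 exon bases of Trdc are annotated as untranslated. By reads, without division by length, beta regions held 55.4% and 54.4% in NK libraries against 50.6% and 61.4% in T libraries, which overlapped. Trdc held 36.5% and 40.6% of the reads in NK libraries against 2.87% and 1.03% in T libraries.

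Joined receptor transcripts carry a V segment, so reads on V segments were set beside the constant reads of the same chain. Reads were counted per gene, so a V read does not show whether its segment was joined. The table lists 35 beta V segments. None had a read in either NK library, although 2095 NK reads fell on Trbc1 and Trbc2, and the exact 95% upper limit of the V share in V plus constant reads was 0.176% over both libraries (0.143% by the floor of 3 reads). Within libraries that limit was 0.362% in NK 1 and 0.342% in NK 2. In T cells 30 reads fell on 8 beta V segments beside 6075 constant reads, a share of 0.491% (counting interval 0.332% to 0.701%). The V share was 0.855% in T library 1 (0.515% to 1.33%) and 0.283% in T library 2 (0.142% to 0.506%), so the limit lay below the T interval in pool 1 and within it in pool 2. Few V reads were thus counted in either cell type. Trbv2 had the highest T mean and was at 4.41 and 0 normalized CPM in T libraries 1 and 2, and Trbv20, the next, was at 1.65 and 0.71.

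Alpha V segments were likewise without NK reads. Of 128 listed, 0 had a read in NK cells beside 101 Trac reads, with an exact 95% upper limit of 3.59% (2.97% by the floor of 3 reads). In T cells 56 reads fell on 13 of them beside 4172 Trac reads (1.32%, counting interval 1.00% to 1.72%), so a share of the T size was not detectable in NK cells at this depth. Trav16d-dv11 led with 3.85 and 5.32 normalized CPM in the T libraries, followed by Trav3-3 with 4.41 and 0.71. Segments with DV in their name can join to the delta as well as the alpha chain, but were counted here as alpha V only. The delta V shares below leave them out, among them the 22 T reads of Trav16d-dv11.

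Delta V reads were seen in NK cells, and whether they came from joined transcripts was not tested. They totalled 71 beside 1474 Trdc reads in NK cells (4.60%, counting interval 3.61% to 5.76%) and 5 beside 190 in T cells (2.56%, 0.84% to 5.88%), with overlapping intervals. Trdv4 (chromosome 14, 54074905 to 54075515) carried most of them, at 9.76 and 13.8 normalized CPM in NK libraries against 1.10 and 0.35 in T libraries. Its log2 fold change of 2.90 (SE 0.72) did not pass (limma adjusted p = 0.0707). Trdv2-2 had 2.44 and 0.35 normalized CPM in the NK pools against 0 and 0.71 in T cells.

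**Figure D4:**
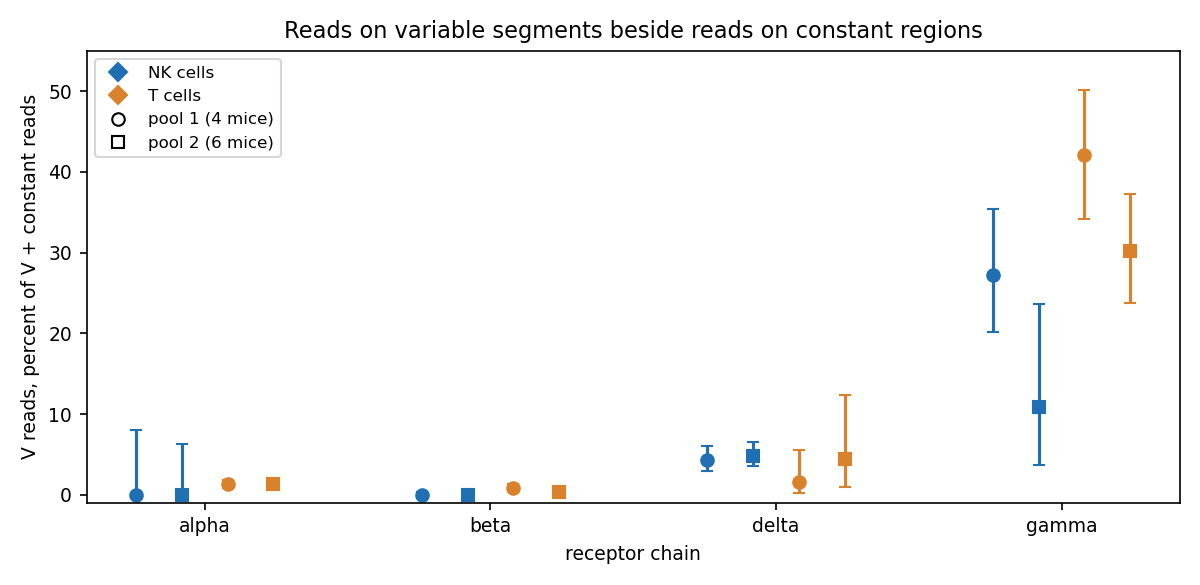
Reads on V segments as a percent of V plus constant region reads of the same chain in each library, with exact 95% counting intervals; NK libraries in blue, T libraries in orange, circles pool 1 and squares pool 2. No NK library had a read on an alpha or beta V segment, whereas delta and gamma V reads were present in both cell types.

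Gamma V segments had 39 and 5 reads in NK libraries, 27.3% and 10.9% of V plus constant reads, against 66 and 58 in T libraries, 42.0% and 30.2%. Trgv2, on the same strand as Tcrg-C2 and annotated upstream of it (19336573 to 19337167), had 11.0 and 1.77 normalized CPM in the NK pools against 18.7 and 20.2 in the T pools (limma adjusted p = 0.300). Tcrg-V1, upstream of Tcrg-C4 on the plus strand (19339989 to 19340454), had 4.88 and 0 in the NK pools against 13.2 and 0.35 in T cells. In both cell types Tcrg-V1 was higher in pool 1, as was Tcrg-C4.

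The CD3 and zeta chains, which carry the receptor to the surface and signal for it, were all lower in NK cells (4 of 4 called by limma, median log2 fold change -3.80), by unequal amounts. Cd3e and Cd3d, with means of 4.84 ± 1.67 and 7.28 ± 2.24 normalized CPM in the NK pools against 287 ± 66.1 and 212 ± 23.1 in T cells, were at shares like those of Trac. Cd3g had 35.4 and 14.9 in the NK pools against 133 and 240 in T cells, and its NK share was 26.6% in pool 1 and 6.20% in pool 2. Cd247, the zeta chain that NK cells also use with NKp46, had 46.4 and 28.4 in the NK pools against 117 and 154 in the T pools (log2 fold change -1.86, SE 0.38, limma adjusted p = 0.0321).

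Of 10 gamma-delta T cell genes 4 were tested and 0 passed by limma or edgeR, while at an unadjusted p under 0.05 limma had 0 higher in NK and 1 higher in T. With the replicate block 1 gene, Maf, passed as lower in NK cells, as did 3.97% of all genes tested. Maf, a transcription factor of several T cell subsets, was at 112 and 78.0 normalized CPM in the NK pools against 340 and 142 in T cells. Zbtb16, which encodes PLZF, a factor of innate-like T cells, was at 1.22 and 5.32 against 1.65 and 1.77. Blk, a Src family kinase, and the scavenger receptor gene 5830411N06Rik had 0 reads in NK cells. Of the genes for rearrangement and the pre-T cell receptor, Rag1, Rag2 and Ptcra had 0 reads in all 4 libraries and Dntt, the terminal transferase, had 0 in the NK pools against 0 and 0.71 in T cells. Ada, a purine enzyme abundant in thymocytes, was at 36.2 and 21.6 in the NK pools against 3.85 and 6.02 in the T pools (limma adjusted p = 0.0651, edgeR 0.0450, and limma with the replicate block 0.00123).

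Among 16 transcription factors known to bind or regulate receptor loci, 1 passed by limma as higher in NK cells and 3 as lower. Of all genes tested, 1.24% and 1.09% did so. The median log2 fold change was -0.65 over the 16 and 0.02 over all genes tested. With the replicate block 2 of the 16 passed as higher and 7 as lower, against 4.26% and 3.97% of all genes. Bcl11b, a factor of T cell commitment that is also among the 11 alpha-beta T cell genes, differed by -5.67 (SE 0.36, limma adjusted p = 4.54e-05), and Tcf7, which encodes TCF-1, a factor that binds the alpha enhancer, by -2.65 (SE 0.55, limma adjusted p = 0.0342). Id2, an inhibitor of E proteins, was higher in NK cells at 1608 ± 128 normalized CPM against 641 ± 80.2 in T cells (SD, n = 2 each, limma adjusted p = 0.0379). Of the E protein genes, Tcf3 and Tcf12 did not pass, at log2 fold changes of 0.52 and -0.64, while Tcf4, which is not among the 16, was higher in NK cells at 111 and 121 normalized CPM against 22.6 and 10.6 in T libraries (log2 fold change 2.82, SE 0.44, limma adjusted p = 0.00743).

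Genes with the most similar profile were found by the Euclidean distance between centred log2(value + 1) values over the 4 libraries, among 6562 named genes. Nearest to Trac were Trat1 (distance 0.21), which encodes a receptor-associated adaptor, Bcl11b (0.28) and Cd3e (0.32). Nearest to Trbc2 were Rasgrp2 (0.10), Frmd6 (0.28) and Tox (0.35), and nearest to Trbc1 were Washc4 (0.08), Tsc22d2 (0.09) and Rplp1 (0.10), none of which passed the test. Trdc was closest to Zfhx3 (0.17), Tcf4 (0.37) and Gpr141 (0.44). Tcrg-C2 was closest to Ifngr2 (0.32), Cd3g (0.63) and Ext1 (0.64), Tcrg-C4 to Tgm2 (0.16), Plxnc1 (0.22) and Atp8a1 (0.26), and Tcrg-C1 to Lncpint (0.46), Slc37a3 (0.68) and Lrba (0.69). With 4 libraries such distances describe these pools only.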

How the data were processed

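RNA was sequenced from 2 NK and 2 T cell pools. Tools in the submitters' processing notes are STAR 2.7.0f, Bowtie2 2.3.4.1, limma and FastQC, and the build is GRCm38.p6, all without roles. Tumours were dissociated mechanically, strained (70 um), enriched on Percoll and sorted by flow cytometry, per the labels' protocols. The sources used here do not name the counting tool, its strand setting or its treatment of multi-mapped reads. The table deposited by the authors holds a normalized signal, 1 column per library. Divided by the smallest non-zero value of its library, 100% of values came out whole (tolerance 0.001 reads). TMM factors recomputed from the recovered reads (1.103, 1.058, 0.878 and 0.975 for NK 1, NK 2, T 1 and T 2) were those implied by the deposited values. Rows without a symbol took 0.02% of reads and were kept under their identifiers, and 27 symbols turned into dates were restored.

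Genes with a mean of at least 1 were tested on log2(value + 1) with limma 3.58.1 in R 4.3.3 (trend, no block, residual degrees of freedom 2). Contrasts are NK minus T, and p-values were adjusted over 12128 genes by Benjamini-Hochberg. Fold changes of low genes are understated on this scale. Alternatives were edgeR 4.0.16 and DESeq2 1.42.0 on recovered reads, other pseudocounts, filters and scalings, the replicate block and leaving out each library. The script was checked on simulated counts. Intervals are exact binomial at 95% and, like floors of 3 reads, cover counting error only.

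The series' design text ties each replicate number to a pool of mice, so the numbers were taken to pair NK and T libraries. Across genes the difference between pools correlated at 0.161 between NK and T cells. Every pair of libraries differed by more than sampling noise, with a chi-square per degree of freedom of at least 10.3. Each p-value rests on 2 pools a side. In limma the variance of each gene was also drawn towards a trend over all genes tested. Such a p-value therefore does not measure the spread of that gene between the pools alone. The spread between single mice was not measured. The constant region genes, the gene lists and the naming rule were chosen with earlier results of these data known. That rule names all constant region and CD3 genes, up to 2 called genes per direction of each list by largest fold change (the 2 most abundant if none), the 2 highest V segments per chain and cell type, and the 3 nearest genes per constant region. Other genes in the text were named after their values were seen. Annotation and sequences come from GENCODE M21.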

Additional observations from a re-analysis of the deposited data

How the results depend on the processing

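Over 10 alternatives with all libraries (tests, pseudocounts, filters, scalings, the replicate block) Trac kept log2 fold changes of -5.63 to -5.30 and Trbc2 of -2.35 to -2.10, all past the threshold. Trdc kept 2.59 to 2.99 and lost its call with a pseudocount of 0.1, where 0 of the 7 genes were called higher in NK cells and 51 and 47 of all genes were called higher in NK and in T. When 1 library was dropped, limma found 0 genes in both directions (677 to 1758 at an unadjusted p under 0.05), and so 0 of the 7, with a lowest adjusted p of 0.162. The log2 fold changes then ranged over -5.74 to -5.31 for Trac, -2.46 to -2.18 for Trbc2, -0.96 to -0.44 for Trbc1, 2.00 to 3.54 for Trdc and -0.16 to 1.51 for Tcrg-C4. Tcrg-C4 was -0.10 without NK replicate 1 and -0.16 without T replicate 2. The replicate block put 517 genes higher in NK and 482 genes higher in T, and among the 7 genes changed only the call of Tcrg-C2. DESeq2 called 221 genes as lower in NK, against 132 by limma. Without the TMM factor 137 genes were called higher in NK and 79 higher in T (150 and 132 with it), the median of all genes moved to 0.22, and the mean NK level as a percent of the T level was 23.7% for Trbc2 and 194% for Tcrg-C4. The causes were not tested. Tcrg-C1 has no value with a mean of at least 5, and the gamma genes rest on 0 to 110 reads per library.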

Other observations

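Joining segments of the alpha chain lie between Trdc and Trac on chromosome 14, and 1 of them stood out among 60 listed. Traj18 (54200777 to 54200842, a single exon of 66 bases) had 0 reads in both NK libraries against 89.2 and 26.6 normalized CPM in the T libraries, from 162 and 75 reads. The T level was 73.1 times a floor of 3 reads in the NK library of the same pool in pool 1 and 25.0 times in pool 2. The difference passed (limma adjusted p = 0.0030), and Traj18 held 237 of the 379 alpha J reads of the T cells. Traj18 is the segment used by the semi-invariant alpha chain of NKT cells, which joins it to Trav11. Trav11, Trav11d and Trav11n had 0 reads over all 4 libraries, where only 56 alpha V reads were counted in T cells in all. Which T cells the Traj18 reads came from was not tested. Traj18 was named after its values were seen. Traj49, the next J segment, had 0 and 1.77 normalized CPM in the NK pools against 18.7 and 9.21 in the T pools and did not pass (limma adjusted p = 0.0811).

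A few NK reads fell on D and J segments. Trbd1 had 6 reads and 0 reads in NK libraries 1 and 2 and 0 in the T libraries, Trbj1-1 had 2 and 2 against 0 and 0, and Trdj1 had 6 and 2 against 0 and 0. Traj58 had 0 and 4.25 normalized CPM in the NK pools against 0 and 1.06 in the T pools. Of these only Traj58 passed the filter and was tested (limma adjusted p = 0.839).

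The T pools, 1 library each, had different levels of some gamma and delta genes. Trdc, Tcrg-C1, Tcrg-C4 and Tcrg-V1 were higher in T pool 1 (68.8, 9.91, 22.6 and 13.2 normalized CPM) than in T pool 2 (23.0, 2.13, 6.38 and 0.35), while Tcrg-C2 was lower in pool 1 (17.6 against 39.0). The summed gamma constant regions (50.1 in pool 1 and 47.5 in pool 2) and Trgv2 (18.7 and 20.2) were nearly equal. Macrophage markers were higher in pool 1 of both cell types, and their part in these differences was not tested.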
